A study of Drosophila melanogaster with 6 samples.

Results

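The small RNA pathway genes described here are the 7 genes AGO1, AGO2, Dcr-1, Dcr-2, Hen1, armi and Fmr1, out of 3991 genes tested. They were chosen by name, and the deposited columns that carry each symbol were added up for each gene. All 7 were measured, and all 7 had a mean of at least 1 RPKM (reads per kilobase of transcript, scaled to the reads of the library), the minimum for testing. The samples were 6 libraries of S2, a blood-cell-like line derived from Drosophila melanogaster embryos, and each group held 2. The control group carried a control knockdown. The other groups carried a knockdown of the histone chaperone NAP-1 (gene Nap1) or of the histone acetyltransferase CBP (gene nej). The labels name neither the agent used for the knockdowns, nor its duration, nor whether the 2 samples of a group were separate cultures, so p-values measure a spread between samples that may be technical only.

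Small RNAs guide Argonaute proteins to RNAs that pair with them. In flies Dcr-1 cuts hairpin precursors into microRNAs, which act mostly with AGO1 to repress messenger RNAs. Dcr-2 cuts long double-stranded RNA into small interfering RNAs, which act with AGO2 to slice viral and other matching RNAs, and this branch is what lets S2 cells respond to experimental RNA interference. A further branch, the PIWI pathway, silences transposons in the gonad with the help of the helicase encoded by armi.

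Each library had between 4162019 and 5362319 alignments. Nap1 stood at 20.6 and 26.5 RPKM in NAP-1 knockdown against 220 and 243 RPKM in control, and nej at 0.899 and 0.363 RPKM in CBP knockdown against 3.25 and 2.47 RPKM. The listed columns of the blood cell markers Hml, NimC1, srp and He reached at most 0.348 RPKM in any library, and of the germline genes vas and AGO3 at most 0.282 RPKM, while the germline gene aub ran from 0.559 to 3.87 RPKM. Only part of a gene's mRNAs is listed, so these low values do not describe the whole gene. In bulk RNA, fewer cells of a type and less RNA per cell cannot be told apart.

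In the controls AGO2 was by far the most abundant of the 7, with 95.1 ± 28.7 RPKM (SD, n = 2), a level above that of 97.8% of the genes tested. Fmr1 followed with 12.6 ± 0.317 RPKM. The others lay close together, in the order Dcr-2 (3.82 ± 2.94 RPKM), Hen1 (3.77 ± 1.14 RPKM), AGO1 (3.73 ± 2.14 RPKM), Dcr-1 (3.20 ± 1.18 RPKM) and armi (2.89 ± 1.44 RPKM), and no neighbours among these 5 differed beyond their spread. Control replicate 1 was higher than replicate 2 for all 7 genes, by 3.39 times for Dcr-2 and 1.04 times for Fmr1 at the extremes.

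**Figure D1:**
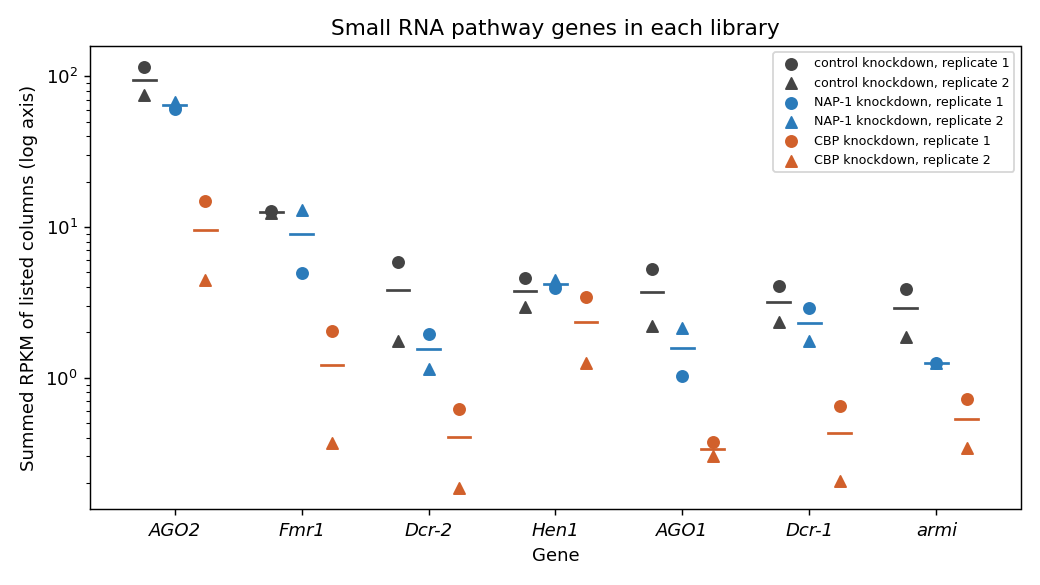
Summed RPKM of the listed columns of each gene (log axis) in every library, with circles for replicate 1, triangles for replicate 2 and a bar at each group's mean. AGO2 stands at 115.4 and 74.8 RPKM in the controls, and both CBP knockdown libraries lie below both controls for every gene but Hen1.

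In CBP knockdown 5 of the 7 genes fell, 0 rose, and Dcr-2 and Hen1 did not pass the test (limma, adjusted p under 0.05 over 3991 genes). Over all genes tested 17.4% were called lower and 8.49% higher, or 695 against 339 genes; the split was 640 against 494 with median-of-ratios scaling and 411 against 370 with quantile normalization. At an unadjusted p under 0.05, 6 of the 7 passed, as did 43.8% of all genes. The median log2 fold change was -1.65 over the 7 and -0.15 over all genes, on the scale of log2(RPKM + 1), where changes at low RPKM come out too small. For 6 of the 7 both CBP knockdown libraries lay below both controls, a pattern that 42.4% of all genes showed. When control replicate 1 or CBP knockdown replicate 2 was left out, no gene tested stayed called, so the calls depended on these libraries. With each library left out in turn, the log2 difference ran from -4.12 to -2.57 for AGO2 and from -3.31 to -2.16 for Fmr1. It ran from -2.22 to -1.26 for AGO1, from -1.83 to -1.25 for Dcr-1 and from -2.32 to -0.98 for Dcr-2. For armi it ran from -1.69 to -0.92 and for Hen1 from -1.06 to -0.08.

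AGO2 encodes the Argonaute that slices targets of small interfering RNAs. It had 115.4 and 74.8 RPKM in the controls, 61.1 and 67.5 RPKM in NAP-1 knockdown, and 14.8 and 4.42 RPKM in CBP knockdown. The CBP knockdown libraries were low and stood far below the other 4. The mean in CBP knockdown was 10.1% of the control mean, a log2 difference of -3.34 ± 0.51 (SE) that passed (limma, adjusted p = 0.0163). Most of the AGO2 signal came from the mRNA NM_001274953, which held 93.1% and 90.6% of the summed RPKM in the controls and 94.5% and 98.0% in CBP knockdown. Tested alone, that mRNA had a log2 fold change of -3.27 (limma, adjusted p = 0.0262), and the second AGO2 column one of -2.60 (adjusted p = 0.0302).

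Dcr-2 encodes the Dicer that makes small interfering RNAs. It had 5.90 and 1.74 RPKM in the controls, 1.95 and 1.14 RPKM in NAP-1 knockdown, and 0.621 and 0.185 RPKM in CBP knockdown. The groups did not overlap between CBP knockdown and control, but the controls were far apart from each other. The log2 fold change of -1.65 ± 0.50 (SE) did not pass (limma, adjusted p = 0.0508), and over 15 alternatives without a length correction its adjusted p ran from 0.0414 to 0.251. The r2d2 gene, whose product loads small interfering RNAs together with Dcr-2, had 17.1 and 22.0 RPKM in the controls and 19.6 and 17.8 RPKM in CBP knockdown.

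Hen1 encodes the methyltransferase that protects the ends of small RNAs bound to AGO2 and to PIWI proteins. It had 4.57 and 2.96 RPKM in the controls, 3.96 and 4.44 RPKM in NAP-1 knockdown, and 3.44 and 1.26 RPKM in CBP knockdown. Its CBP knockdown and control values overlapped. The log2 fold change was -0.57 ± 0.40 (SE; limma, adjusted p = 0.313).

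The microRNA branch was represented by AGO1 and Dcr-1. AGO1 encodes the main microRNA Argonaute, and it had 5.24 and 2.21 RPKM in the controls, 1.02 and 2.14 RPKM in NAP-1 knockdown, and 0.375 and 0.302 RPKM in CBP knockdown. AGO1 was lowest in the CBP knockdown libraries, where the mean was 9.08% of the control mean, and the log2 difference was -1.74 ± 0.43 (SE; limma, adjusted p = 0.0325). Dcr-1 encodes the Dicer that makes microRNAs. It had 4.03 and 2.36 RPKM in the controls, 2.89 and 1.74 RPKM in NAP-1 knockdown, and 0.652 and 0.205 RPKM in CBP knockdown. The CBP knockdown libraries were again below the other 4, at 13.4% of the control mean, and the log2 difference was -1.54 ± 0.38 (SE; limma, adjusted p = 0.0325).

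Fmr1 encodes the fly orthologue of the fragile X protein, an RNA-binding repressor of translation found with Argonaute complexes. It had 12.8 and 12.4 RPKM in the controls, 4.99 and 12.9 RPKM in NAP-1 knockdown, and 2.04 and 0.368 RPKM in CBP knockdown. The controls and NAP-1 knockdown replicate 2 were nearly equal, NAP-1 knockdown replicate 1 lay between, and CBP knockdown was lowest at 9.55% of the control mean. The log2 fold change in CBP knockdown was -2.74 ± 0.52 (SE; limma, adjusted p = 0.0187). The mRNA NM_001170109 held 60.2% and 67.6% of the summed Fmr1 RPKM in the controls, 56.3% and 69.9% in NAP-1 knockdown, and 30.7% and 6.36% in CBP knockdown. Both listed Fmr1 mRNAs fell when tested alone, with log2 differences of -2.81 for NM_001170109 and -1.62 for NM_001260088 (limma, adjusted p = 0.0275 and 0.0442). The difference between these mRNAs was not tested.

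The gene armi encodes the helicase Armitage, which acts in the PIWI pathway and was also linked to loading of small interfering RNAs in flies. It had 3.90 and 1.87 RPKM in the controls, 1.26 and 1.25 RPKM in NAP-1 knockdown, and 0.717 and 0.339 RPKM in CBP knockdown. Its groups did not overlap, with control highest and CBP knockdown lowest. The log2 fold change in CBP knockdown was -1.31 ± 0.38 (SE; limma, adjusted p = 0.0451). Leaving out any 1 library ended that call, with adjusted p between 0.0543 and 0.219. In control replicate 1 the mRNA NM_001014556 held 66.0% of the summed armi RPKM, and in control replicate 2 it held 97.1%. Tested alone, that mRNA did not pass in CBP knockdown (log2 difference -1.07; limma, adjusted p = 0.0661). The armi call also ended when columns with a mean under 1 RPKM were left out before summing (adjusted p = 0.0548).

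Transcripts of these genes are mostly long, and long transcripts were lower in CBP knockdown across the table. Genes are no independent replicates. Over 3961 of them the rank correlation (Spearman's rho) of transcript length with the log2 difference was taken. It was -0.38 for CBP knockdown and -0.37 for NAP-1 knockdown, which share the controls, and 0.31 for NAP-1 minus CBP knockdown. The sizes were unlike. From the shortest to the longest of 5 equal bins, the median log2 difference went from 0.29 to -1.08 in CBP knockdown. In NAP-1 knockdown it went from 0.07 to -0.32. The trend also appeared between replicates of a group, with -0.25 for control replicate 2 minus replicate 1 and -0.28 for CBP knockdown replicate 2 minus replicate 1. The part of RNA quality or library preparation in it was not tested. In the BDGP6 annotation, whose release differs from the dm3 build of the deposited values, the median transcript lengths were 6913 nt for Dcr-1 on chromosome arm 3R, 6633 nt for AGO1 on 2R, 5682.5 nt for Dcr-2 on 2R, 4145 nt for armi on 3L, 4050 nt for AGO2 on 3L, 3381 nt for Fmr1 on 3R and 1573 nt for Hen1 on 2R. All but Hen1 were in the longest of 5 equal bins of genes. In that bin the median log2 fold change in CBP knockdown was -1.08, and 40.5% of its 792 genes were called lower. The values for Dcr-2, AGO1, Dcr-1 and armi were between -1.74 and -1.31, nearer to that median than those for AGO2 and Fmr1. At their low levels the added 1 RPKM shrinks differences. The CBP knockdown mean was 9.08% of the control mean for AGO1, 10.5% for Dcr-2, 13.4% for Dcr-1 and 18.3% for armi. For AGO2 and Fmr1 it was 10.1% and 9.55%. At a pseudocount of 0.1 the log2 differences were -3.01 for AGO1, -2.87 for Dcr-2, -2.73 for Dcr-1 and -2.23 for armi. Those of AGO2 and Fmr1 were -3.50 and -3.67.

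**Figure D2:**
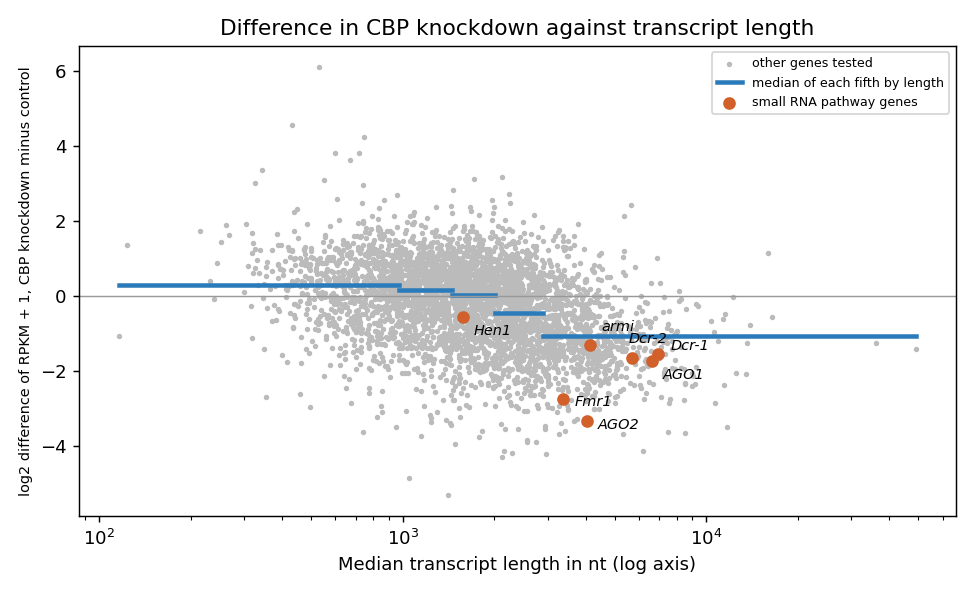
Log2 difference in RPKM + 1 between CBP knockdown and control (vertical axis) against median transcript length in nt (log axis) for 3961 genes. A separate horizontal line marks the median of each of 5 equal bins by length, and the 7 small RNA pathway genes are in orange. The median of the longest bin is -1.08. The 6 small RNA pathway genes in that bin lie below it, from -3.34 for AGO2 and -2.74 for Fmr1 to -1.31 for armi.

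With a smooth trend on transcript length removed from each library, 2 of the 7 were called lower, AGO2 and Fmr1, against 9.57% of all genes called lower and 10.9% called higher. The log2 difference of AGO2 was then -2.33 ± 0.39 (SE; limma, adjusted p = 0.0198) and that of Fmr1 -1.90 ± 0.43 (SE; limma, adjusted p = 0.0326). AGO1, Dcr-1, Dcr-2 and armi had values between -0.40 and -0.18, with adjusted p between 0.427 and 0.712, and Hen1 had -0.48 (adjusted p = 0.332). The same genes were called at a pseudocount of 0.1, where low values weigh more (AGO2 -1.87, adjusted p = 0.0256, and Fmr1 -2.34, adjusted p = 0.0422). The uncalled genes AGO1, Dcr-2, armi and Dcr-1 then had larger differences of -0.79, -0.81, -0.56 and -0.48, and that of AGO2 was smaller. The distance between AGO2 and these genes thus depended on the pseudocount. The correction also ended the calls of the targeted genes. For nej (13566 nt) the log2 difference in CBP knockdown went from -1.26 (limma, adjusted p = 0.0467) to 0.23 (adjusted p = 0.560). For Nap1 in NAP-1 knockdown it went from -3.25 (limma, adjusted p = 0.0296) to -3.16 (adjusted p = 0.0791). With the trend removed, 0 of the 7 were called without control replicate 1, control replicate 2 or CBP knockdown replicate 2, and 1, AGO2, without CBP knockdown replicate 1. Of all 3961 genes 0 were called without control replicate 1 or CBP knockdown replicate 2, 54 were lower and 32 higher without control replicate 2, and 192 were lower and 134 higher without CBP knockdown replicate 1.

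**Figure D3:**
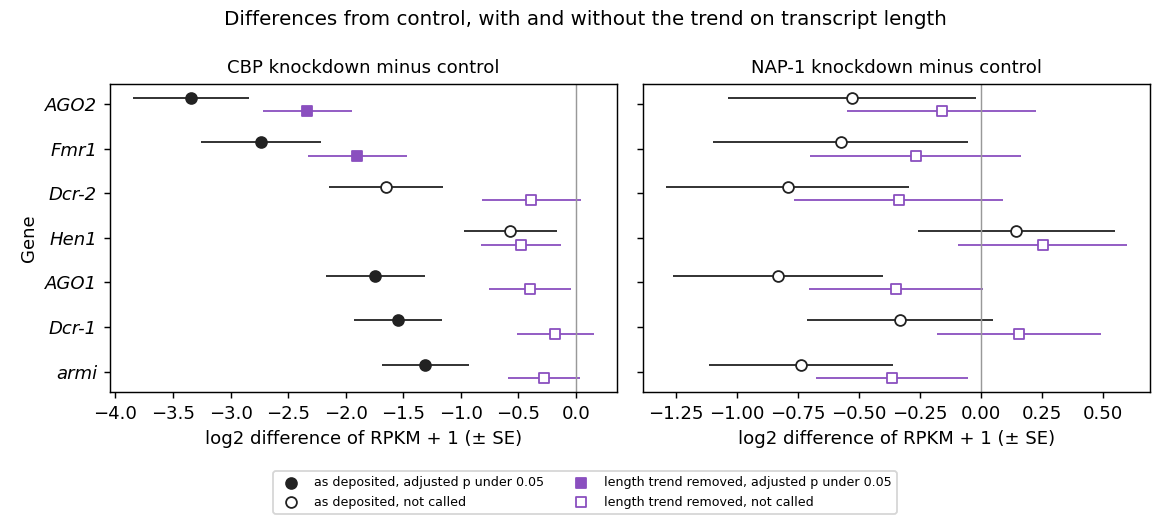
Log2 difference in RPKM + 1 from control with its SE for CBP knockdown (left) and NAP-1 knockdown (right), for the deposited values (circles) and after removal of the length trend (squares). Filled symbols have an adjusted p under 0.05. AGO2 and Fmr1 are filled in both forms for CBP knockdown, and no symbol is filled for NAP-1 knockdown.

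The number of reads behind the low values was small. If each value was scaled to the listed alignments and to the median transcript length, AGO2 rested on about 2262 alignments in control replicate 1 and 96.0 in CBP knockdown replicate 2. The other 6 genes rested on 24.2 to 217 alignments in the controls and on 5.6 to 10.7 in CBP knockdown replicate 2. In CBP knockdown replicate 1 they rested on 13.1 to 36.4. Differences among these genes within CBP knockdown were not tested.

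In NAP-1 knockdown 0 of the 7 genes were called (limma, adjusted p between 0.979 and 0.980), and 0 had an unadjusted p under 0.05. Over all genes 0.0251% were called lower and 0% higher, and 3.53% had an unadjusted p under 0.05. The log2 differences from control ran from -0.83 ± 0.43 (SE) for AGO1 to 0.15 ± 0.40 (SE) for Hen1, with a median of -0.58 against -0.13 over all genes. Both NAP-1 knockdown libraries lay below both controls for AGO1, AGO2 and armi, 3 of 7, a pattern shown by 26.2% of all genes. The NAP-1 knockdown replicates differed most for Fmr1, and without replicate 1 its log2 difference was 0.03 in place of -0.58. With the length trend removed the differences were between -0.36 and 0.25.

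NAP-1 and CBP knockdown were compared directly to test whether their differences from the shared controls were unequal. All 7 genes were higher in both NAP-1 knockdown libraries than in both CBP knockdown libraries, a pattern that 32.8% of all genes showed. AGO2 alone passed, higher by 2.82 ± 0.51 on the log2 scale (SE; limma, adjusted p = 0.0457), where 1.43% of all genes were called higher and 1.65% lower. Leaving out any 1 library ended that call (adjusted p between 0.0512 and 0.264). It held with the length trend removed (adjusted p = 0.0406), where 1.39% of all genes were higher and 2.02% lower. Fmr1 was higher by 2.16 ± 0.52 (SE; limma, adjusted p = 0.0611; 0.0435 without NAP-1 knockdown replicate 1) and Dcr-1 by 1.21 ± 0.38 (SE; adjusted p = 0.0950). The remaining 4 had log2 differences between 0.57 and 0.91 with adjusted p between 0.188 and 0.321.

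Other genes of these pathways were taken from lists of 85 symbols, alternative names included, of which 39 had a column in use and 33 were tested. In CBP knockdown 18 of the 33 fell and 0 rose, with a median log2 fold change of -1.60, beside 17.4% lower and 8.49% higher and a median of -0.15 over all genes. With the length trend removed, 5 were lower and 2 higher of the 32 with a length, beside 9.57% lower and 10.9% higher over all genes. Fewer of these genes were called lower when any 1 control or CBP knockdown library was left out, as over all genes. The calls depended most on control replicate 1 and CBP knockdown replicate 2. In NAP-1 knockdown 0 of the 33 were called (limma), beside 0.0251% lower and 0% higher over all genes. An unadjusted p under 0.05 was found for 3 of the 33 and for 3.53% of all genes.

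Among microRNA genes, loqs, which encodes the double-stranded RNA-binding partner of Dcr-1, had 4.40 and 3.88 RPKM in the controls, 8.38 and 9.20 RPKM in NAP-1 knockdown, and 7.20 and 12.18 RPKM in CBP knockdown. It was higher in all 4 knockdown libraries than in the controls, unlike Dcr-1, though its log2 difference of 1.02 in CBP knockdown did not pass (limma, adjusted p = 0.0544). The longest bin starts at 2906 nt, and of the genes that act in microRNA silencing Dcp1 and tral are shorter. Beside 17.4% of all genes and 40.5% of the longest bin called lower, 6 of 8 genes that act in microRNA silencing fell. They included gw, which encodes the GW182 partner of AGO1 and went from 3.70 and 1.63 RPKM to 0.00749 and 5.12e-09 RPKM. The decapping genes Dcp2, Edc3 and Ge-1 had log2 fold changes of -2.48, -1.75 and -2.62. Not3, of the CCR4-NOT deadenylase, and tral, of P bodies, had -1.95 and -1.63. The decapping cofactor gene Dcp1 and the exoribonuclease gene pcm had values of 0.99 and 1.05 that did not pass (limma, adjusted p = 0.0650 and 0.0700). With the length trend removed Ge-1 was the 1 gene of these called lower (-1.48, adjusted p = 0.0248) and pcm the 1 called higher (2.27, adjusted p = 0.0255).

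Of 11 genes of small interfering RNA loading and the silencing complex, 4 fell, beside 17.4% of all genes and 40.5% of the longest bin. They were AGO2, Fmr1, the co-chaperone gene Hop (-2.03) and Tudor-SN (-1.09), which encodes a nuclease-like subunit. In this list r2d2, Hen1, Hsp83, Hsc70-4 and Droj2 are shorter than the genes of that bin. No length was found for Hop, so it has no corrected value, and Tudor-SN was not called with the length trend removed (-0.28, adjusted p = 0.444). The chaperone genes Hsp83 and Hsc70-4 and the helicase gene Rm62 had values of -0.69, -0.06 and -0.30 that did not pass.

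Of 8 PIWI pathway genes tested, 4 fell, beside 17.4% of all genes and 40.5% of the longest bin. They were armi, del (-1.84), BoYb (-1.41) and CG9754 (-1.72), which encodes Panoramix, a factor of transcriptional silencing by Piwi. In this list CG9754, squ, Gasz, nxf2 and aub are shorter than the genes of that bin. CG9754 was called with the length trend removed too (-1.49, adjusted p = 0.0270). The gene squ had 99.8 and 94.6 RPKM in the controls, 28.9 and 131 RPKM in NAP-1 knockdown, and 31.0 and 4.23 RPKM in CBP knockdown. Its log2 difference in CBP knockdown was -2.92 ± 0.94 (SE; limma, adjusted p = 0.0590). The Argonaute genes aub and AGO3 stood between 0.559 and 3.87 RPKM and at 0.279 RPKM or less.

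The counts of the next lists also stand beside 17.4% of all genes and 40.5% of the longest bin called lower. In these lists vir-1, ref(2)P, Rab7, AP-2mu, the uptake gene VhaSFD and tral are shorter than the genes of that bin. Of 8 genes of FMRP partners and messenger ribonucleoproteins, 6 fell, AGO1, AGO2 and Fmr1 among them. The others were Capr, which encodes Caprin (-2.63), Atx2, which encodes Ataxin-2 (-2.11), and tral. AGO1, AGO2, Fmr1 and tral are counted in other lists too. With the length trend removed Capr kept its call (-1.64, limma, adjusted p = 0.0292) and Atx2 did not (-0.94, adjusted p = 0.103). Of 5 genes required for uptake of double-stranded RNA, 3 fell: the clathrin gene Chc (-1.63), the endosomal GTPase gene Rab7 (-2.57) and lt (-1.40). AP-2mu, which encodes a clathrin adaptor subunit, had a log2 difference of 0.72 that did not pass (adjusted p = 0.0675) and was called higher with the length trend removed (0.94, adjusted p = 0.0465). Both antiviral genes tested fell: vir-1, a gene induced by virus infection, went from 248 and 181 RPKM to 71.7 and 35.9 RPKM (-2.04, adjusted p = 0.0185), and ref(2)P had -1.77 (adjusted p = 0.0399). With the length trend removed Rab7 (-2.56, adjusted p = 0.0310) and vir-1 (-2.08, adjusted p = 0.0208) were called and ref(2)P was not (-1.31, adjusted p = 0.0627).

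**Figure D4:**
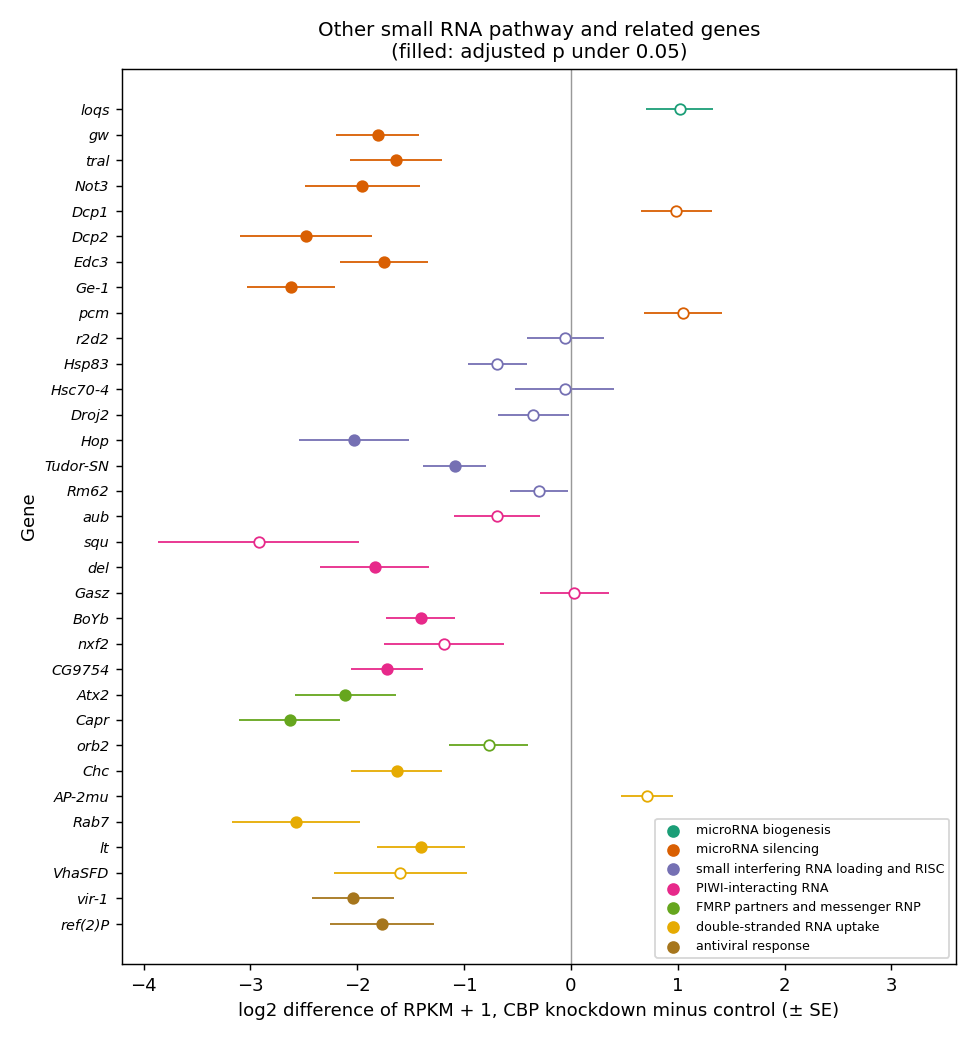
Log2 difference in RPKM + 1 between CBP knockdown and control, with its SE, for the 33 other pathway genes tested, coloured by list. Filled symbols have an adjusted p under 0.05; 18 are filled, all left of 0, from -2.63 for Capr to -1.09 for Tudor-SN.

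The genes most like each of the 7 over the 6 libraries were found by the root mean square difference of centred log2(RPKM + 1) values. For AGO1 they were dlg1 (0.0379) and the decapping gene Edc3 (0.0715), and for armi CG32985 (0.0710) and CG42324 (0.0831). Dcr-1 was nearest to LM408 (0.0917) and JhI-1 (0.0952), Hen1 to Ho (0.0886) and CG12942 (0.117), and Dcr-2 to CG4972 (0.155) and Maf1 (0.166). The nearest genes to Fmr1 were Vang (0.132) and sqd (0.133). AGO2 had the most distant neighbours by this measure, CG8545 (0.191) and toc (0.213), but the measure grows with the size of a gene's changes. Their Pearson correlations with AGO2 were 0.992 and 0.994. Over the nearest genes of all 7 these ran from 0.968 for Hen1 and CG12942 to 0.999 for AGO1 and dlg1. Among the 7 themselves, Dcr-2 and armi were the closest pair by root mean square difference (0.259) and AGO2 and Hen1 the most distant (1.19).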

How the data were processed

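Libraries of S2 messenger RNA were strand-specific, per the labels. The authors deposited 1 table of RPKM values with a count of alignments per sample. Per the submitters' processing notes the genome was dm3. Which programs aligned and counted the reads is not given in the sources used here. Of 16381 feature columns, 7156 are named by a symbol and 9225 by a RefSeq mRNA and symbol. Columns with a mean of at least 1 RPKM whose values repeat no other column, and all columns of the listed genes, 4460 in all, were used; 11921 columns were not. Values repeated within a symbol were counted once, as for AGO1 and Fmr1, and summed to 4001 genes, 3991 of them with a mean of at least 1 RPKM. The table holds 1 of 4 RefSeq mRNAs of AGO1, 1 of 3 of AGO2, 2 of 3 of armi and 2 of 11 of Fmr1 by accession. It has 16384 columns, a spreadsheet's column limit, so columns may have been cut off. Shares over all genes cover the listed columns only, and mRNAs without a column were not analysed here. Low values reach far below 1 read, so reads could not be recovered.

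Differences were tested on log2(RPKM + 1) with limma (version 3.58.1, R 4.3.3) in 1 model of the 6 samples with a variance trend. P-values were adjusted by the Benjamini-Hochberg method over the 3991 genes, and adjusted p under 0.05 was called. Simulated data with independent noise and no length trend were used to check the size of the estimated differences. That check did not judge the calls. Transcript lengths are medians over a gene's transcripts in BDGP6, found for 3961 genes. The length trend is a loess fit in each library. The genes and lists were chosen with earlier results of these data known. Named genes are the 7, all called members of each list and otherwise up to 3 with the smallest p, some others for context after their values were seen, and the 2 nearest genes by pattern. Alternatives covered the pseudocount, minimum, summing, scaling, samples, replicate number, variance trend, length, threshold and each sample left out.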

Additional observations from a re-analysis of the deposited data

How the results depend on the processing

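In CBP knockdown 5 of the 7 genes were called. The number was 2 at a minimum mean of 5 RPKM, where only AGO2 and Fmr1 were tested, 2 with quantile normalization, 2 with the length trend removed at either pseudocount, and between 0 and 4 on omission of each library, or between 0 and 2 with the trend also removed. It was 4 to 6 under the other alternatives. For NAP-1 knockdown it was 0 under each alternative run. Between NAP-1 and CBP knockdown 1 gene was called, against 0 at a pseudocount of 0.1, for single columns, with 4 samples in the fit, with no variance trend and with the replicate number as a block, 3 at a threshold of 0.1, and 0 to 1 on omission of each library. Gene by gene, the length correction combined with omission of a library was followed for CBP knockdown alone; in the other comparisons that combination changed further signs, for example leaving 3 of the 7 genes negative in place of 6 in NAP-1 knockdown without control replicate 1, and 3 in place of 0 between knockdowns without NAP-1 knockdown replicate 1. Among the differences followed gene by gene, 7 changed sign: Dcr-1 (0.16, and 0.22 at a pseudocount of 0.1) in NAP-1 knockdown and armi (-0.086) between knockdowns with the length trend removed, Hen1 in NAP-1 knockdown without control replicate 2 (-0.10 to 0.39 over all omissions), Fmr1 in NAP-1 knockdown without its replicate 1 (-1.185 to 0.035 over all omissions), and Dcr-2 (0.13) and armi (0.0029) in CBP knockdown with the trend removed and control replicate 1 left out. The cause was not tested.

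The median log2 difference over all genes in CBP knockdown was -0.15, but 0.01 with median-of-ratios scaling, 0.12 with quantile normalization and 0.08 with the length trend removed. The labels do not say that replicate numbers mark a shared batch, so the main fit held no block. Replicate 1 minus replicate 2 was correlated between groups across 3991 genes. The correlation was 0.245 for control and NAP-1 knockdown, 0.126 for control and CBP knockdown and -0.242 for NAP-1 and CBP knockdown. Pairing cannot be judged from these values, because the trend on transcript length also appeared between replicates. With the replicate block 4 of the 7 genes were called in CBP knockdown, Dcr-2 among them and AGO1 and armi not. Of the 33 other pathway genes 11 were then lower in place of 18. Over all 3991 genes 498 were lower with the block in place of 695. With quantile normalization 8 of the 33 were lower, beside 411 of all genes. No fit was run without a minimum level. Repeated columns were added back only for the 7 genes. The length corrections without single libraries and at a pseudocount of 0.1 were chosen after the data were seen.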
